A study of Mus musculus with 9 samples.

Results

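The comparison described here set 3 libraries labelled Betp-Gel@Ran against 3 untreated libraries, 6 of the 9 RNA-sequencing libraries in the series, and asked what still differed in the back of the eye 3 months after an intravitreal injection. All samples were flat mounts of choroid and retina from C57BL/6 mice. The Betp-Gel@Ran samples, here called the gel libraries, were taken 3 months after BetP-Gel was injected into the vitreous, and the group name adds Ran, for ranibizumab in the series title. Untreated mice had no listed agent. The remaining 3 libraries carry the label CNV and titles that refer to wet AMD, and their levels are given for orientation only, with no test. The labels give a sampling time for the gel group alone, do not say whether those mice had CNV, and name the gel without the drug in the treatment field. Time, injection, gel and drug therefore cannot be told apart. Whether each library stands for its own mouse is not stated, so the p-values measure the spread between libraries, which may be technical. Genes entered the comparison when at least 3 of the 6 libraries reached 1 FPKM (fragments per kilobase of gene, scaled to library size), which 13541 of the 54532 genes in the table did. Of these, 207 passed only through the gel libraries and 130 only through the untreated ones, and such genes had to differ. Among the genes described one by one below, C7, Ccr2, Cx3cr1, Edn2, Fcer1a, Flt1, Mki67, Nrp1, Nrp2, Plxnd1, Retnlg and Saa3 passed only through the gel libraries, and Cryge, Crygf, Cxcl2, Esm1, Ifnl2, Ifnl3, mt-Tg, Pdk4, Pglyrp4 and Pou4f3 only through the untreated ones. Their values describe these libraries, the separation of their groups is set by the filter, and each is called a gene selected by the filter where it is described. Further genes of this kind that only count towards a list are named with that list.

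As background, ranibizumab is an antibody fragment that captures vascular endothelial growth factor A (VEGF-A), the ligand that drives the leaky new vessels of wet age-related macular degeneration, and a hydrogel depot in the vitreous is meant to release it slowly. The choroid and retina hold resident macrophages and microglia, which engulf debris, present antigen through major histocompatibility complex (MHC) class II and produce complement. Müller glia respond to injury of the retina by raising intermediate filament and acute-phase genes. Rods carry most of the photoreceptor RNA of a mouse retina, ganglion cells send its axons to the brain, and the pigment epithelium renews the visual pigment and separates retina from choroid.

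The 6 libraries held 16990118 to 17807993 reads on genes, recovered from the deposited values, and 13164 to 13477 genes at 1 FPKM or more. Pearson's r of log2(FPKM + 1) across genes lay between 0.983 and 0.991 within a group and between 0.952 and 0.961 across groups. Marker lists showed that the samples were not retina and choroid alone. Genes of cornea and ocular surface epithelium took 6.58% to 7.28% of reads in untreated and 6.48% to 7.37% in gel libraries, and rod genes took 2.56% to 2.85% and 1.36% to 1.84%. Untreated replicate 3 stood apart from the other two untreated libraries through lens RNA: gamma crystallins, proteins of the lens fibre, took 1.04% of its reads against 0.0596% in the untreated library with the least. The untreated libraries also differed from the gel and CNV libraries in how reads were split between near-identical genes such as Rps3a1 and Rps3a2, described last, and the part of this in the other differences was not tested.

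Of the genes tested, 4913 passed an adjusted p of 0.05 in limma, which is 36.3% of them. The gel libraries were higher for 2315 genes, or 17.1%, and lower for 2598, or 19.2%. A change of at least 1 on the log2(FPKM + 1) scale was passed by 145 higher genes, or 1.07%, and by 321 lower genes, or 2.37%. On this scale 1 is a doubling for an abundant gene, and the change of a gene near or under 1 FPKM is understated. The groups did not overlap in any library for 51.3% of genes, and the median change of all genes was -0.01. The balance of directions depended on the scaling: 47.1% of the called genes were higher here, 55.3% after quantile normalization, 62.9% with FPKM divided by its sum and 60.2% with limma voom on reads scaled to their own totals. Without gel replicate 3 the calls fell to 1469 higher and 1682 lower genes.

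**Figure D1:**
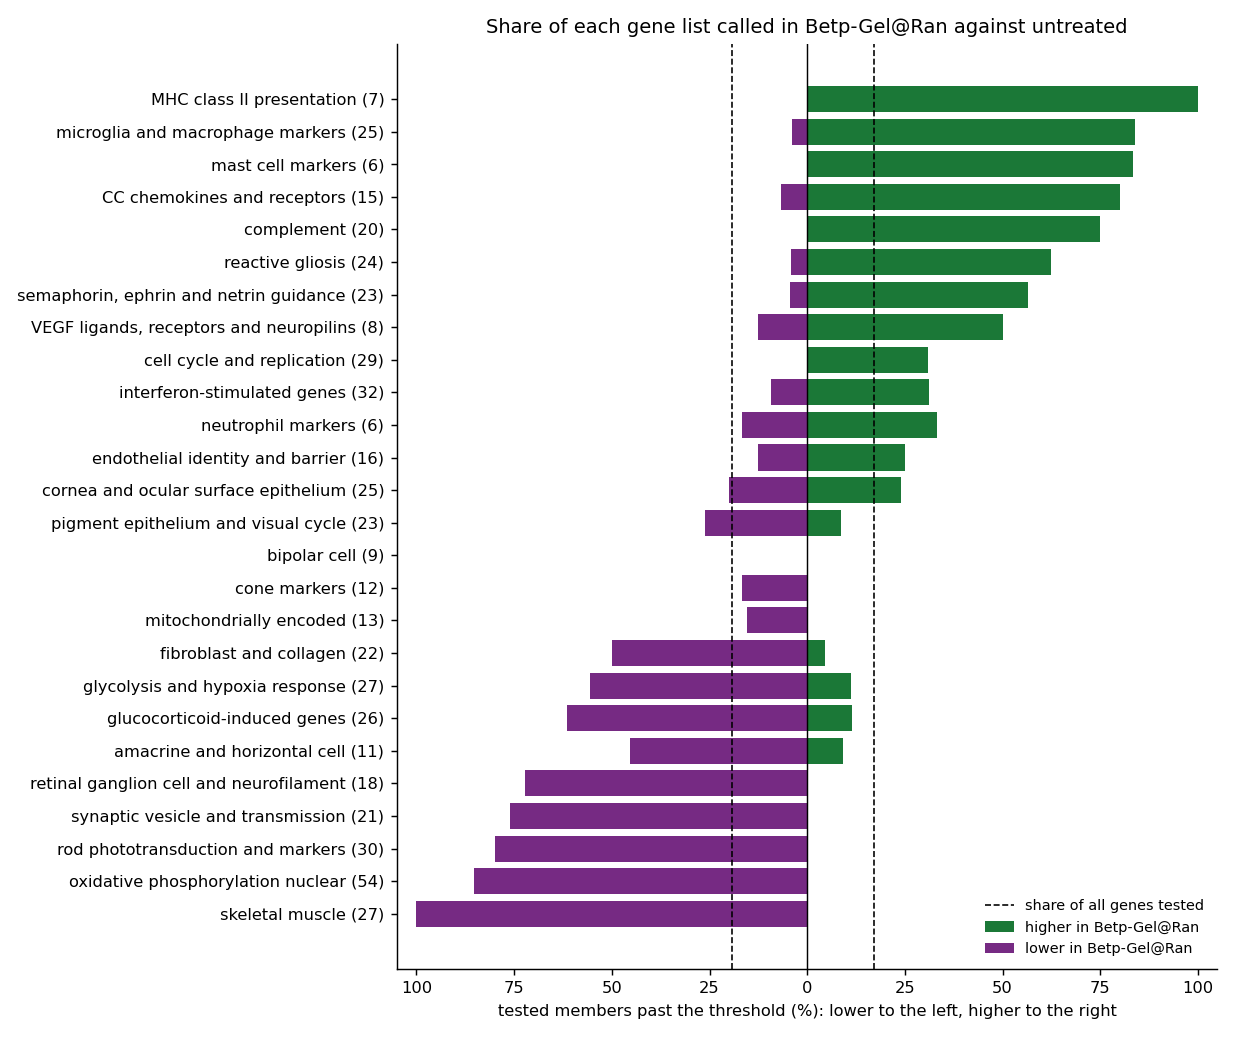
Share of the tested members of each gene list (rows, with the number tested in brackets) that passed limma's adjusted p of 0.05, with lower members drawn to the left and higher members to the right, in percent. The dashed lines mark the shares of all genes tested, 17.1% higher and 19.2% lower. Among the lists drawn, immune lists reach furthest to the right, led by MHC class II at 7 of 7, and skeletal muscle furthest to the left at 27 of 27. Immune lists not drawn ranged from 13.3% higher for MHC class I, at 2 of 15, to 60% for lymphocyte markers, at 3 of 5. Lysosome genes, also not drawn, had 6 of 26 higher, or 23.1%. Some lists hold genes that passed the filter through 1 group only.

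Macrophage and microglial RNA was higher in the gel libraries. Of 28 listed markers 25 were tested, 21 rose and 1 fell, with a median of 0.95, and the count of rises stayed at 19 to 20 when any library was left out. The rises include Cx3cr1, which passed only through the gel libraries. Lyz2, the lysozyme of macrophages and other myeloid cells (chr10:117277331-117282321, mm10), was at 204, 227 and 236 FPKM in untreated and at 623, 486 and 601 FPKM in gel libraries, a rise of 1.35 ± 0.12 (SE; limma adjusted p = 0.000242). Mpeg1, the pore-forming perforin-2 of phagocytes, went from 1.25, 1.55 and 2.33 FPKM to 11.5, 11.2 and 16.6 FPKM, a rise of 2.38 ± 0.19 (limma adjusted p = 0.000244). No gel library came near an untreated one for either gene. Ctss, a cathepsin that trims antigen-bound invariant chain, stood at 31.1, 34.2 and 33.3 FPKM against 85.6, 78.7 and 106 FPKM in the gel libraries, 1.42 ± 0.12 higher (limma adjusted p = 0.000195). Trem2, a lipid-sensing receptor of microglia and macrophages, rose by 1.16 ± 0.10 (limma adjusted p = 0.000287) from 1.43, 1.13 and 1.11 FPKM to 4.12, 3.46 and 4.36 FPKM. Its untreated and gel values did not overlap.

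Surface receptors that define resident microglia and macrophages were higher as well. Csf1r, the receptor for colony-stimulating factor 1, was at 5.27, 5.48 and 5.58 FPKM and then 9.66, 10.05 and 11.9 FPKM, a rise of 0.84 ± 0.09 (limma adjusted p = 0.000624). Cx3cr1, the fractalkine receptor, selected by the filter, moved from 0.523, 0.462 and 0.729 FPKM to 1.72, 1.70 and 2.04 FPKM, also 0.84 higher (SE 0.11; limma adjusted p = 0.00125). P2ry12 and Tmem119, markers of homeostatic microglia, are given after their values were seen. P2ry12 rose by 0.67 ± 0.13 (limma adjusted p = 0.00616), with 1.06, 1.04 and 1.05 FPKM in untreated and 1.75, 2.28 and 2.82 FPKM in gel libraries. Tmem119 was above every untreated library in every gel library, at 6.17 to 7.43 against 4.86 to 5.94 FPKM, but missed the threshold (0.24 ± 0.10; limma adjusted p = 0.0887). Summed over the list, macrophage and microglial genes took 0.0889% to 0.0957% of reads in untreated, 0.185% to 0.219% in gel and 0.293% to 0.409% in CNV libraries. In bulk tissue, more cells of a type and more RNA per cell cannot be told apart. The share of skeletal muscle genes fell at the same time, from 1.26% to 1.27% of reads to 0.295% to 0.361%, and its part in these changes was not tested.

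CC chemokines, which attract monocytes, eosinophils and lymphocytes, and their receptors were mostly higher: 12 of 15 tested members were higher and 1 was lower, with a median of 0.96 and 10 to 12 rises when any library was left out. The tested members include 3 that passed only through the gel libraries, Ccl4, Ccr1 and Ccr2, so the count is a description. Ccl8, a monocyte-attracting chemokine (chr11:82115185-82116799), was at 15.7, 24.4 and 24.6 FPKM in untreated and 136, 91.6 and 106 FPKM in gel libraries, 2.32 ± 0.21 higher (limma adjusted p = 0.000473). Ccr2, the receptor that brings inflammatory monocytes into tissue, selected by the filter, stood at 0.680, 0.716 and 0.898 FPKM and then 4.90, 3.59 and 4.93 FPKM, a rise of 1.63 ± 0.12 (limma adjusted p = 0.000128). Ccl2, the main ligand of Ccr2, reached 2.26, 3.70 and 5.07 FPKM from 0.828, 1.19 and 1.42 FPKM, a rise of 1.09 ± 0.23 (limma adjusted p = 0.0102). The gel libraries lay above the untreated ones for Ccl8 and Ccl2. Ccl7 and Ccl12, further ligands of Ccr2, rose by 1.85 and 1.79 (limma adjusted p = 0.00384 and 0.00473). Of the eotaxins, which attract eosinophils, Ccl24 rose from 1.27, 1.78 and 1.67 FPKM to 4.45, 4.75 and 4.59 FPKM, by 1.12 ± 0.10 (limma adjusted p = 0.000242). Ccl11 rose by 0.96 ± 0.11 (limma adjusted p = 0.00083), from 12.5 to 13.8 FPKM to 22.7 to 30.1 FPKM. Both eotaxins were separated between the groups in every library.

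Among the largest rises of all genes were other genes of myeloid cells and the acute phase. Wfdc17, a secreted protein of activated macrophages, was at 20.7, 21.6 and 24.3 FPKM in untreated and 137, 116 and 121 FPKM in gel libraries, 2.44 ± 0.10 higher (limma adjusted p = 8.49e-06). Saa3, an acute-phase serum amyloid made by macrophages and epithelia, selected by the filter, was in untreated libraries at 0.0904, 0.173 and 0.0951 FPKM and reached 5.76, 4.10 and 5.11 FPKM after the gel. Its rise was 2.41 ± 0.12 (limma adjusted p = 2.37e-05). Cd209d, a C-type lectin related to DC-SIGN, rose by 2.21 ± 0.20 (limma adjusted p = 0.00035), with 0.449, 1.10 and 0.202 FPKM against 6.64, 6.33 and 5.51 FPKM. For Wfdc17 and Cd209d every gel library was above every untreated one.

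MHC class II presentation rose as a whole: 7 of 10 listed genes were tested and 7 of those 7 were higher, with a median of 1.05. H2-Aa, the alpha chain of the I-A molecule (chr17:34282744-34287827), was at 27.9, 27.3 and 32.6 FPKM in untreated and 77.3, 65.3 and 76.9 FPKM in gel libraries, a rise of 1.29 ± 0.10 (limma adjusted p = 0.00016). H2-Eb1, the beta chain of I-E, stood at 36.0, 39.2 and 42.6 FPKM and then 103, 78.7 and 87.6 FPKM, 1.17 ± 0.11 higher (limma adjusted p = 0.000417). Cd74, the invariant chain that guards the peptide groove, rose by 1.05 ± 0.09 (limma adjusted p = 0.000256), from 64.7, 69.3 and 78.4 FPKM to 146, 141 and 155 FPKM. Every gel library was above every untreated library for these genes. The CNV libraries lay lower than the gel libraries for Cd74, at 79.2 to 123 FPKM, for H2-Aa, at 37.9 to 63.4 FPKM, and for H2-Eb1, at 51.1 to 78.5 FPKM. H2-Ab1 overlapped, at 48.6 to 63.9 FPKM in gel and 33.6 to 57.7 FPKM in CNV libraries. Ctss was higher in the CNV libraries, at 152 to 244 FPKM. The summed share of the list was alike, at 0.0658% to 0.0741% of reads in gel and 0.0677% to 0.0736% in CNV libraries. Ctss and Cd74 belong to the macrophage list as well. Of the weaker members, H2-DMa and H2-DMb1, which load peptides, missed the threshold when any of several libraries was left out, so that 5 to 7 members were called. MHC class I presentation showed less, with 2 rises and 1 fall among 15 tested members and a median of 0.10.

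The promoters of the MHC class II genes are known for a conserved Y box, a binding site of the factor NF-Y with the core CTGATTGG, and the windows shown are those of the 2 members that hold it, chosen for that match. They span 250 bases before to 50 after the RefSeq start site (GRCm38.p6, the same build as mm10) and are written 5′ to 3′ on the gene's strand, with the motif in capitals. H2-Aa lies on the minus strand at chr17:34287774-34288073, with the motif beginning 51 bases before the start site. H2-Eb1 lies on the plus strand at chr17:34305617-34305916, with the motif 62 bases before it.
H2-Aa: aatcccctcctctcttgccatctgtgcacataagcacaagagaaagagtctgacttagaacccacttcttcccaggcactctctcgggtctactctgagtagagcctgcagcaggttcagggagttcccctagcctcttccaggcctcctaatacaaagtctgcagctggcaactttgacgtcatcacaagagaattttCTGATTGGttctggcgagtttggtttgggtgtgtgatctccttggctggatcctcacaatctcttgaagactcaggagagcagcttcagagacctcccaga
H2-Eb1: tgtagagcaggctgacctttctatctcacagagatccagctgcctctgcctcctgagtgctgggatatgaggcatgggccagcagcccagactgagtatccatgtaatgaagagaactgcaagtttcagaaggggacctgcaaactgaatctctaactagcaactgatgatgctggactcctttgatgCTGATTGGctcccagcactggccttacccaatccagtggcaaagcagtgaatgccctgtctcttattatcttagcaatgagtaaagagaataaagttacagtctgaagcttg
Searched on both strands, CTGATTGG was present in 2 of the 5 tested members that had a promoter in the RefSeq set, and in 1346 of all 32851 promoters of this length, or 4.1%. A match describes the letters of the window and is not evidence of a bound factor.

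Complement genes rose with them. Of 25 listed genes 20 were tested, and 15 were higher, with a median of 0.72 and 13 to 15 rises when any library was left out. The tested members include 3 that passed only through the gel libraries, C3ar1, C5ar1 and C7, so the count is a description. C3, the central component that is cleaved onto surfaces (chr17:57203970-57228136), was at 2.90, 3.07 and 1.55 FPKM in untreated and 18.9, 14.0 and 13.6 FPKM in gel libraries, a rise of 2.25 ± 0.20 (limma adjusted p = 0.000479). C4b, the step before C3 in the classical pathway, went from 3.88, 3.76 and 4.30 FPKM to 12.2, 15.6 and 10.9 FPKM, 1.47 ± 0.12 higher (limma adjusted p = 0.00023). C7, part of the terminal pore complex, selected by the filter, was at 0.242, 0.400 and 0.0926 FPKM and then 3.84, 4.29 and 4.25 FPKM, a rise of 2.05 ± 0.11 (limma adjusted p = 2.92e-05). C3 and C4b were higher in every gel library than in every untreated one. The proteases C1s1 and C1ra rose by 0.92 and 0.71 (limma adjusted p = 0.000291 and 0.000479). The recognition subunits C1qa, C1qb and C1qc, which are macrophage markers as well, rose by 0.67, 0.78 and 0.61, with limma adjusted p of 0.00571, 0.00212 and 0.00876.

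Neutrophil markers gave 2 rises and 1 fall among 6 tested, beside 17.1% higher and 19.2% lower among all genes. The rises include Retnlg, which passed only through the gel libraries, so the count is a description. Gel replicate 3 differed from the other 2 gel libraries. S100a9, a calprotectin subunit of neutrophils, was at 21.7, 31.4 and 19.7 FPKM in untreated and 7.65, 8.81 and 83.1 FPKM in gel libraries, and did not pass the test (-0.36 ± 0.99; limma adjusted p = 0.806). Without gel replicate 3 it was lower by -1.43 (limma adjusted p = 0.00624). S100a8, its partner, followed the same pattern at 3.65, 4.79 and 2.86 FPKM against 3.62, 2.79 and 37.6 FPKM (limma adjusted p = 0.528). In both genes gel replicate 3 alone exceeded all untreated libraries. Summed over the list, neutrophil markers took 0.00588% to 0.00919% of reads in untreated, 0.00928% to 0.0225% in gel and 0.0791% to 0.139% in CNV libraries. Retnlg, a resistin-like protein of granulocytes, selected by the filter, rose by 1.18 ± 0.21 (limma adjusted p = 0.00473), from 0.199 to 0.570 FPKM to 1.29 to 2.80 FPKM.

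The neutrophil-attracting CXC chemokines showed no common direction, with 1 of 5 tested members higher, 1 lower and a median of 0.00. That is 20% each way, beside 17.1% higher and 19.2% lower among all genes. Cxcl2, a ligand of the neutrophil receptor Cxcr2, selected by the filter, fell from 2.99, 1.77 and 1.89 FPKM to 0.138, 0.241 and 0.484 FPKM, by 1.31 on the log2 scale (SE 0.17; limma adjusted p = 0.00134), while CNV libraries held 7.78 to 11.5 FPKM. Ppbp, a platelet and myeloid chemokine, did not pass the test, at 2.39, 2.65 and 0.915 FPKM against 2.85, 2.46 and 13.2 FPKM (limma adjusted p = 0.27). Cxcl5 overlapped as well, at 1.90 to 2.76 FPKM and 1.64 to 4.04 FPKM (limma adjusted p = 0.994). Among cytokines, Tnf did not pass the test (-0.25 ± 0.20; limma adjusted p = 0.362), with 15.3, 8.97 and 9.15 FPKM in untreated and 9.19, 7.67 and 10.02 FPKM in gel libraries. Il1b, which was below the filter, stood at 0.402, 0.502 and 0.422 FPKM and then at 0.868, 0.436 and 2.75 FPKM, with the highest value again in gel replicate 3. The interleukin 1 receptor antagonist Il1rn rose by 0.57 ± 0.12 (limma adjusted p = 0.0103) and the alarmin Il33 by 0.46 ± 0.08 (limma adjusted p = 0.00464).

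Of 6 tested mast cell markers 5 rose, with a median of 0.70, and 4 to 6 rose when any library was left out. The rises include Fcer1a, which passed only through the gel libraries. Cma1, a mast cell chymase, was at 9.13, 9.66 and 10.5 FPKM in untreated and 20.2, 18.1 and 17.7 FPKM in gel libraries, a rise of 0.87 ± 0.08 (limma adjusted p = 0.000383). Fcer1a, the alpha chain of the IgE receptor, selected by the filter, rose by 0.76 ± 0.11 (limma adjusted p = 0.00211), from 0.621 to 0.945 FPKM to 1.89 to 2.29 FPKM. Igkc, the kappa light chain of antibodies, was at 0.886, 0.847 and 1.16 FPKM and then 3.75, 6.56 and 9.52 FPKM, 1.88 ± 0.27 higher (limma adjusted p = 0.0031). Ighm, the IgM heavy chain, moved from 6.00, 6.72 and 7.46 FPKM to 14.1, 13.0 and 16.6 FPKM, a rise of 1.01 ± 0.11 (limma adjusted p = 0.000655). Only 5 of 20 listed lymphocyte markers were tested, and 3 of them rose and 1 fell. The member that fell was Jchain, the joining chain of antibodies, named after its values were seen, at 1.83, 1.77 and 3.05 FPKM in untreated and 0.612, 1.36 and 0.912 FPKM in gel libraries (-0.71 ± 0.19; limma adjusted p = 0.0248). Jchain passed no longer without untreated replicate 3, gel replicate 1 or gel replicate 3 (limma adjusted p = 0.0514, 0.0668 and 0.0745), or with no filter (0.0626). Interferon-stimulated genes gave 10 rises and 3 falls among 32, or 31.2% and 9.38%, beside 17.1% and 19.2% of all genes. Their median was 0.13, and the rises dropped to 6 without untreated replicate 2 and to 4 without gel replicate 3. The tested members include Irf8 and Mx1, which passed only through the gel libraries.

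**Figure D2:**
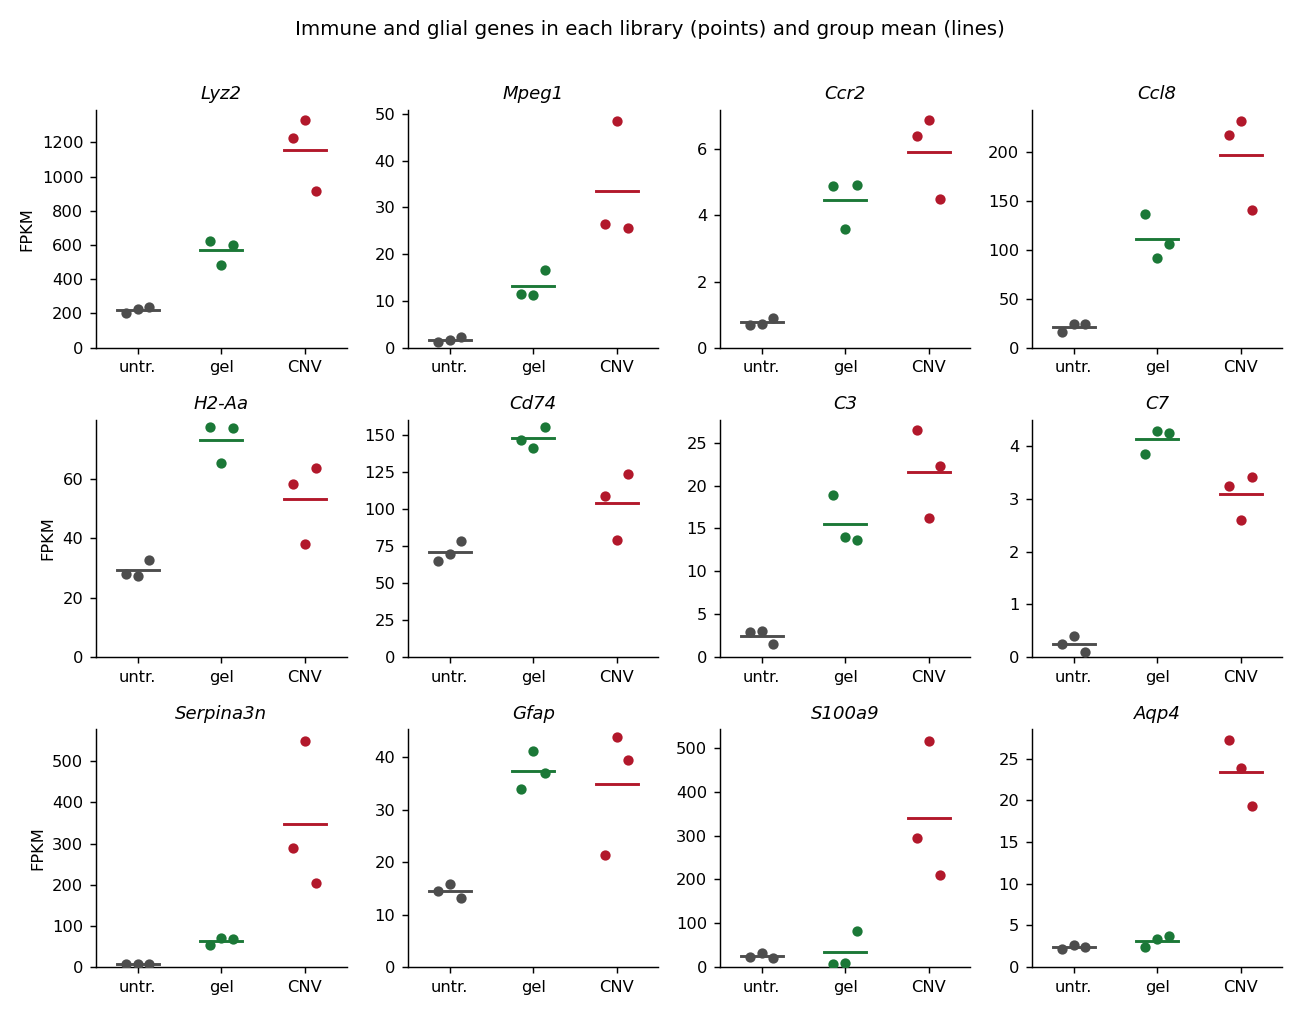
FPKM of 12 immune and glial genes, with 1 point for each library and a line at the mean of the 3 libraries of a group (untreated in grey, gel in green, CNV in red). For Lyz2, Mpeg1, Ccl8, H2-Aa, Cd74, C3, Serpina3n and Gfap every gel point lies above every untreated point, Ccr2 and C7 are separated by the filter that selected them, while for S100a9 only gel replicate 3, at 83.1 FPKM, does, and Aqp4 overlaps.

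Genes of reactive gliosis, the injury response of retinal glia, rose for 15 of 24 members and fell for 1, with a median of 0.45. Between 10 and 15 rose when any library was left out. The rises include Edn2, which passed only through the gel libraries. They also include C3 and C4b, counted in the complement list as well, and Ccl2, counted among the CC chemokines. Serpina3n, a secreted protease inhibitor of reactive astrocytes and Müller cells (ENSMUSG00000021091, chr12:104406729-104414329), was at 6.96, 8.08 and 7.92 FPKM in untreated and 52.9, 70.4 and 68.2 FPKM in gel libraries, a rise of 2.90 ± 0.12 (limma adjusted p = 1.06e-05). It was higher again in the CNV libraries, at 205 to 550.3 FPKM. Gfap, the intermediate filament of astrocytes and reactive Müller cells (chr11:102887336-102900912), moved from 14.5, 15.9 and 13.2 FPKM to 33.9, 41.3 and 37.0 FPKM, 1.31 ± 0.10 higher (limma adjusted p = 0.00013), and its gel values lay within the 21.3 to 43.8 FPKM of the CNV libraries. Edn2, an endothelin that stressed photoreceptors release, selected by the filter, rose from 0.363, 0.963 and 0.0847 FPKM to 3.47, 5.12 and 4.51 FPKM, by 1.90 ± 0.22 (limma adjusted p = 0.00122). Socs3, the feedback inhibitor of Stat3 signalling, rose by 0.96 ± 0.10 (limma adjusted p = 0.000632), from 1.85, 1.64 and 1.56 FPKM to 3.59, 4.43 and 4.64 FPKM. For Serpina3n, Gfap and Socs3 the lowest gel library was above the highest untreated one.

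The genes of resting Müller glia did not move together: of 16 tested, 5 rose and 4 fell. These are 31.2% and 25%, beside 17.1% and 19.2% of all genes. The rises numbered 2 without untreated replicate 1 or gel replicate 2 and 3 without untreated replicate 2, untreated replicate 3 or gel replicate 3, and the falls 1 without untreated replicate 2 or gel replicate 1 and 2 without untreated replicate 3, gel replicate 2 or gel replicate 3. Glul, the glutamine synthetase that clears glutamate, fell by 0.71 on the log2 scale (SE 0.09; limma adjusted p = 0.00116), from 714, 706 and 638 FPKM to 433, 395 and 431 FPKM. Sox9, a transcription factor of Müller cells, rose from 1.28, 1.77 and 1.42 FPKM to 4.002, 3.14 and 4.41 FPKM, by 0.96 ± 0.13 (limma adjusted p = 0.00148), and Kcnj10, their potassium channel, rose by 0.58 ± 0.13 (limma adjusted p = 0.0127). Aqp4, the water channel of glial endfeet, named after its values were seen, was at 2.10, 2.67 and 2.38 FPKM in untreated and 2.40, 3.32 and 3.76 FPKM in gel libraries and did not pass the test (limma adjusted p = 0.131). In the CNV libraries it was at 19.3 to 27.2 FPKM. Without gel replicate 1 it passed, at 0.43 (limma adjusted p = 0.0277).

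Rod genes were lower. All 30 listed rod genes were tested and 24 fell, with 17 to 24 falls when any library was left out. The median was -0.78 and stayed between -0.88 and -0.64 under every alternative run. Nr2e3, the nuclear receptor that represses cone genes in rods (chr9:59942771-59960659), fell from 63.5, 57.6 and 55.8 FPKM to 23.5, 27.4 and 21.6 FPKM, by 1.26 on the log2 scale (SE 0.10; limma adjusted p = 0.00019). Nrl, the leucine zipper factor that sets rod fate, stood at 196, 187 and 216 FPKM and then 102, 118 and 95.4 FPKM, -0.92 ± 0.10 (limma adjusted p = 0.000762). Every gel library was below every untreated library for both factors. Rom1 and Guca1b, a disc rim protein and a calcium sensor of guanylate cyclase, fell by 0.99 and 1.00 on the log2 scale (limma adjusted p = 0.00138 and 0.00116). Of 11 photoreceptor transcription factors 6 fell, and Prdm1, which holds back bipolar fate, was the only member that rose, from 12.4, 9.55 and 9.31 FPKM to 16.8, 15.7 and 16.9 FPKM (0.63 ± 0.11; limma adjusted p = 0.00433).

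Cone and bipolar genes showed less. Of 12 tested cone genes 2 fell and 10 did not pass the test, with a median of -0.39. The falls make up 16.7%, beside 19.2% lower among all genes. Opn1mw, the middle-wavelength cone opsin, was at 14.5, 25.5 and 48.1 FPKM in untreated and 14.1, 25.8 and 17.3 FPKM in gel libraries and did not pass the test (limma adjusted p = 0.458). Opn1sw, the short-wavelength opsin, overlapped too, at 18.0 to 32.5 and 14.2 to 24.5 FPKM (limma adjusted p = 0.286). The spread of these opsins within the untreated group was wider than the distance between the group means. Ccdc136 and Rxrg were the cone-list members that fell, by 0.53 and 0.74 on the log2 scale (limma adjusted p = 0.00163 and 0.0105). Of the 9 tested bipolar genes 0 passed limma's adjusted p, 1 had an unadjusted p under 0.05, and limma voom called 0, with 1 to 2 calls when untreated replicate 1, untreated replicate 3, gel replicate 1 or gel replicate 2 was left out. Trpm1, the cation channel of ON bipolar cells, overlapped at 11.4 to 22.1 FPKM in untreated and 10.6 to 14.2 FPKM in gel libraries (limma adjusted p = 0.195, or 0.0171 at a change of -0.68 without untreated replicate 1). The difference between rods and these cell types was not tested.

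Ganglion cell and synaptic genes were lower. Of 18 tested ganglion cell and neurofilament genes 13 fell, with a median of -0.75 and 9 to 15 falls when any library was left out. The tested members include Pou4f2 and Pou4f3, which passed only through the untreated libraries. Nrn1, the neurite-promoting neuritin (chr13:36725361-36735131), was at 20.5, 18.1 and 14.8 FPKM in untreated and 5.76, 7.66 and 7.04 FPKM in gel libraries, -1.26 ± 0.13 (limma adjusted p = 0.000624). Tubb3, the neuronal beta tubulin, stood at 45.6, 51.4 and 25.6 FPKM against 12.8, 14.3 and 13.3 FPKM, -1.48 ± 0.24 (limma adjusted p = 0.00526). Pou4f3, a transcription factor of ganglion cells, selected by the filter, fell by 0.72 on the log2 scale (SE 0.12; limma adjusted p = 0.00323), from 1.27, 1.86 and 1.34 FPKM to 0.484, 0.469 and 0.549 FPKM. The gel libraries were close to each other, and untreated replicate 3 was the lowest untreated library for Nrn1 and Tubb3. Of 21 tested synaptic genes 16 fell, with a median of -0.75 and 12 to 20 falls when any library was left out. Snap25, a SNARE protein of vesicle fusion, went from 85.6, 82.9 and 58.3 FPKM to 30.7, 35.3 and 31.4 FPKM, -1.18 ± 0.15 (limma adjusted p = 0.00137). Rab3a, the vesicle GTPase, fell by 1.45 on the log2 scale (SE 0.21; limma adjusted p = 0.00319). Cplx3, the complexin of ribbon synapses, fell by 0.84 (SE 0.12; limma adjusted p = 0.00187).

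Amacrine and horizontal cell genes gave 5 falls and 1 rise among 11, with only 3 falls without untreated replicate 1, without gel replicate 1 or without gel replicate 3. Calb2, the calcium buffer calretinin of amacrine and ganglion cells, held in each of those fits and fell from 256, 240.3 and 145 FPKM to 65.5, 73.1 and 69.0 FPKM, -1.57 ± 0.21 (limma adjusted p = 0.00199). Summed over the lists, ganglion cell genes took 0.0819% to 0.146% of reads in untreated, 0.0598% to 0.0681% in gel and 0.0389% to 0.0437% in CNV libraries. Synaptic genes took 0.240% to 0.344%, 0.156% to 0.185% and 0.117% to 0.132% in the same order. No gel library overlapped an untreated one on either sum. The share of ocular surface genes, which are not retinal, overlapped between untreated and gel libraries, while that of skeletal muscle fell. The part of such differences in tissue content was not tested.

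Of 23 tested genes of the pigment epithelium and visual cycle 6 fell, 2 rose and 15 did not pass the test, beside the 36.3% called among all genes, with a median of -0.06. The falls numbered 3 without untreated replicate 2, and the rises 1 without gel replicate 2 or gel replicate 3. Rpe65, the isomerase of the visual cycle, was at 59.5, 66.6 and 112 FPKM in untreated and 68.2, 66.8 and 73.0 FPKM in gel libraries (-0.14 ± 0.22; limma adjusted p = 0.66). Lrat, which makes its retinyl ester substrate, overlapped as well, at 8.70 to 21.1 and 9.92 to 12.5 FPKM (limma adjusted p = 0.636). Slc16a8, the lactate exporter of the pigment epithelium, fell from 31.8, 32.4 and 32.5 FPKM to 19.0, 14.6 and 15.1 FPKM, by 0.96 on the log2 scale (SE 0.10; limma adjusted p = 0.000607). Rdh5, a retinol dehydrogenase of the same cells, fell by 0.50 (SE 0.10; limma adjusted p = 0.00633). The summed share of the list overlapped, at 0.313% to 0.364% of reads in untreated and 0.326% to 0.332% in gel libraries. Oca2, a melanosome channel, was among 4 of 12 melanin genes that fell (2 without untreated replicate 2, untreated replicate 3, gel replicate 1 or gel replicate 3), from 4.82, 6.18 and 6.90 FPKM to 2.59, 3.43 and 2.69 FPKM (-0.83 ± 0.13; limma adjusted p = 0.00334).

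In the VEGF pathway, Vegfa, which encodes the target of ranibizumab, did not pass the test, while the ligand gene Vegfb fell and the receptor gene Kdr rose. Vegfa (chr17:46016993-46032369) was at 5.27, 6.20 and 6.91 FPKM in untreated and 5.47, 6.33 and 5.72 FPKM in gel libraries and did not pass the test (-0.05 ± 0.10; limma adjusted p = 0.71), while CNV libraries held 7.38 to 11.4 FPKM. Vegfb, a ligand of Flt1, fell from 52.5, 51.1 and 47.7 FPKM to 32.6, 35.2 and 32.2 FPKM, -0.58 ± 0.07 (limma adjusted p = 0.00132). It stood at 29.6 to 32.0 FPKM in CNV libraries. The lowest untreated value of Vegfb was well above the highest gel value, whereas the Vegfa values were interleaved. Kdr, the main signalling receptor VEGFR2 (chr5:75932827-75978458), rose from 0.894, 1.14 and 0.9605 FPKM to 1.59, 1.81 and 1.87 FPKM, by 0.46 ± 0.10 (limma adjusted p = 0.00839). Flt1, the high-affinity receptor VEGFR1, selected by the filter, rose from 0.811, 0.955 and 0.784 FPKM to 1.54, 1.75 and 1.58 FPKM, by 0.50 ± 0.09 (limma adjusted p = 0.00513), and stood at 0.629 to 0.875 FPKM in CNV libraries. The coreceptors Nrp1 and Nrp2, also selected by the filter, rose by 0.49 and 0.48 (limma adjusted p = 0.00564 and 0.00915). In all, 4 of 8 tested members rose, 3 of which passed only through the gel libraries, and 1 fell, with a median of 0.32 that became -0.32 under a filter of 5 FPKM, because both VEGF receptors and both neuropilins are low and drop out there.

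Other genes of vessels moved in both directions. Pecam1, the junction protein CD31 of endothelium, was at 1.34, 0.877 and 1.31 FPKM in untreated and 1.78, 1.16 and 1.20 FPKM in gel libraries and did not pass the test (limma adjusted p = 0.518). Cdh5, the endothelial cadherin, was below the filter, at 0.723 to 0.771 FPKM and 0.644 to 1.62 FPKM. Of 16 endothelial genes 4 rose and 2 fell (0 without untreated replicate 1, untreated replicate 3, gel replicate 2 or gel replicate 3), with a median of 0.13. That is 25% and 12.5%, beside 17.1% higher and 19.2% lower among all genes. The 4 rises were Kdr, Flt1, Tek and Tjp1, and Flt1 passed only through the gel libraries. The 2 falls were Erg and Cldn5 (-0.64 and -0.41 on the log2 scale). The summed share of this list was 0.0483% to 0.0530% of reads in untreated and 0.0677% to 0.0683% in gel libraries. That sum includes Tjp1, which epithelia share and which had a far higher FPKM than Kdr, Flt1, Pecam1 or Cdh5. Its part in the higher share was not tested. Of 13 tip cell, angiopoietin and Notch genes 6 rose and 4 fell, with 4 to 5 rises when any library was left out and 2 falls without untreated replicate 1, untreated replicate 2, gel replicate 1 or gel replicate 2. Of these, Notch1 passed only through the gel libraries and Esm1 only through the untreated ones. Esm1, selected by the filter, was among the falls (-0.42 on the log2 scale). Apln, Dll4 and Pdgfb were below the filter. The summed share of the tip cell list was 0.0157% to 0.0186% in untreated and 0.0241% to 0.0278% in gel libraries. On both sums the gel libraries were above the untreated ones. Cxcl12, a chemokine ligand of Cxcr4 named after its values were seen, rose from 5.76, 6.11 and 6.07 FPKM to 13.3, 13.2 and 10.4 FPKM (0.92 ± 0.10; limma adjusted p = 0.000656), and Angptl4, an angiopoietin-like protein also named after its values were seen, fell by 0.97 on the log2 scale (SE 0.19; limma adjusted p = 0.00839). Tjp1, the tight junction scaffold that epithelia share, rose from 34.7, 29.6 and 26.9 FPKM to 44.3, 44.9 and 51.5 FPKM (0.61 ± 0.11; limma adjusted p = 0.00487). The neuropilins are receptors of semaphorins too, and of 23 semaphorin, ephrin and netrin guidance genes 13 rose and 1 fell, with a median of 0.36 and 9 to 11 rises when any library was left out. Of these guidance genes 4 passed only through the gel libraries, Nrp1, Nrp2, Plxnd1 and Sema5a. Epha4, an ephrin receptor, rose from 3.42, 3.10 and 2.54 FPKM to 5.68, 5.91 and 6.46 FPKM (0.81 ± 0.10; limma adjusted p = 0.0012). Plxnd1, the endothelial semaphorin receptor, selected by the filter, rose by 0.61 ± 0.10 (limma adjusted p = 0.00323), and the secreted cue Ntn1 by 0.50 ± 0.08 (limma adjusted p = 0.00285). For Epha4 and Ntn1 the groups were separated in every library.

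**Figure D3:**
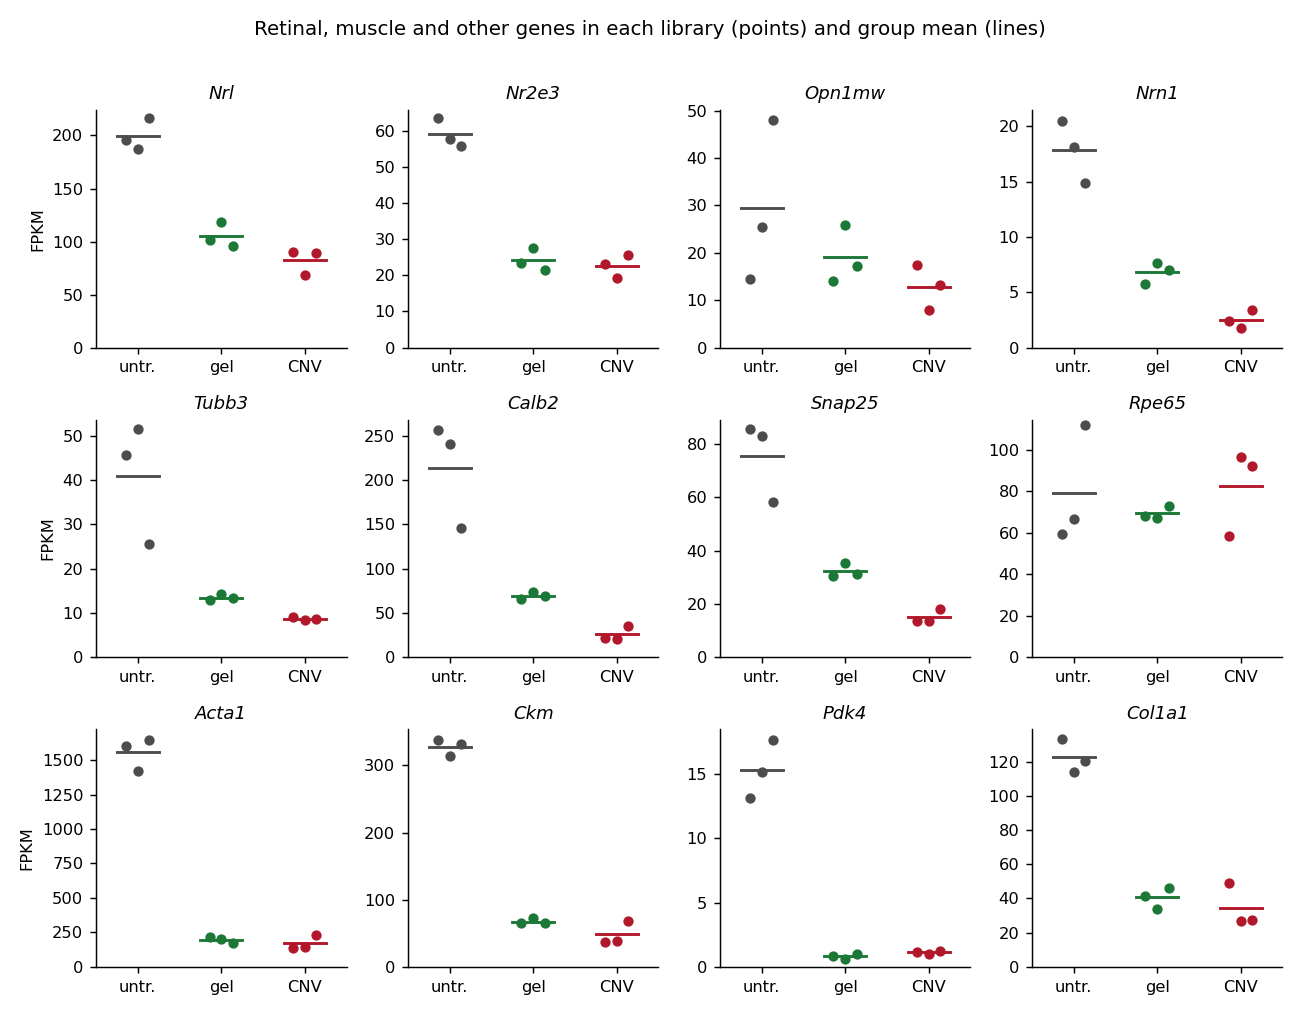
FPKM of 12 retinal, muscle and other genes, with 1 point for each library and a line at the mean of the 3 libraries of a group (untreated in grey, gel in green, CNV in red). Gel points lie below all untreated points for Nrl, Nr2e3, Nrn1, Tubb3, Calb2, Snap25, Acta1, Ckm and Col1a1, Pdk4 is separated by the filter that selected it, and points of the groups overlap for Opn1mw and Rpe65.

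Skeletal muscle genes were lower throughout. Of 34 listed genes 27 were tested and 27 of 27 fell, with a median of -1.87, and 26 to 27 fell when any library was left out. The tested members include Ankrd1, which passed only through the untreated libraries and had to differ. Acta1, skeletal muscle actin (chr8:123891769-123894751), was at 1603, 1424 and 1647 FPKM in untreated and 218, 201 and 172 FPKM in gel libraries, -2.98 ± 0.11 (limma adjusted p = 7.74e-06). Actc1, the cardiac-type actin also found in the eye muscles, fell from 84.2, 75.5 and 79.0 FPKM to 6.31, 7.50 and 6.15 FPKM, -3.40 ± 0.09 (limma adjusted p = 3.03e-06). Ckm, muscle creatine kinase, stood at 338, 313 and 332 FPKM against 65.0, 72.3 and 65.4 FPKM, -2.26 ± 0.08 (limma adjusted p = 6.36e-06). The libraries within each group were close together and the groups far apart. Myh1, a fast myosin heavy chain, and Atp2a1, the calcium pump of fast fibres, fell by 3.16 and 2.502 on the log2 scale (limma adjusted p = 9.07e-06 and 4.11e-06). The labels name choroid and retina, which hold no skeletal muscle. Muscle genes took 1.26% to 1.27% of reads in untreated, 0.295% to 0.361% in gel and 0.209% to 0.357% in CNV libraries, and the amount of muscle left on the flat mounts was not recorded in the labels.

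Muscle actin promoters carry CArG boxes, the sites of serum response factor, and the Acta1 window is shown because Acta1 had the highest level in FPKM of the muscle genes named here. It lies on the minus strand at chr8:123894726-123895025 (RefSeq, GRCm38.p6, 250 bases before to 50 after the start site) with the box in capitals, beginning 73 bases before the start site.
Acta1: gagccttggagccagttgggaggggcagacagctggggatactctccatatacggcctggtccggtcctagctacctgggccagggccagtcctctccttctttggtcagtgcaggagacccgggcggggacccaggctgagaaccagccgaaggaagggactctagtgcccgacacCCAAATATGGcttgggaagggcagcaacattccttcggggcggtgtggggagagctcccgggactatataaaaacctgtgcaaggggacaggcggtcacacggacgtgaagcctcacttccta
The CArG box, searched on both strands, was present in 2 of the 21 tested muscle genes that had a promoter in the RefSeq set, Acta1 and Myh4, and in 535 of all 32851 promoters, or 1.63%.

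Genes of fibroblasts and fibrillar collagen, which make up sclera and corneal stroma, were lower in part. Of 22 tested 11 fell and 1 rose, with a median of -0.34, and the falls dropped to 7 without untreated replicate 1, without gel replicate 2 or without gel replicate 3. Col1a1, a chain of type I collagen, fell from 133, 114 and 120.2 FPKM to 41.6, 33.8 and 46.3 FPKM, -1.58 ± 0.12 (limma adjusted p = 0.000153). Sparc, a collagen-binding matrix protein, went from 1238, 1030.2 and 1389 FPKM to 361, 314 and 379 FPKM, -1.79 ± 0.13 (limma adjusted p = 0.000113). Kera, the keratocan of the corneal stroma, stood at 47.1, 40.3 and 64.3 FPKM and then 7.76, 8.07 and 13.2 FPKM, -2.28 ± 0.24 (limma adjusted p = 0.000975). These genes were separated by a wide gap, while Col3a1, a chain of type III collagen, overlapped at 56.2 to 65.0 and 40.4 to 67.0 FPKM (limma adjusted p = 0.375). The summed share of the list was 1.10% to 1.23% of reads in untreated and 0.623% to 0.713% in gel libraries. Matrix metalloproteinases and their inhibitors went the other way, with 7 of 10 higher, although this count was 3 without untreated replicate 1, 3 without untreated replicate 2 and 4 without gel replicate 3. Mmp3, stromelysin 1, was at 52.96, 46.2 and 53.1 FPKM and then 78.3, 73.7 and 95.7 FPKM (0.69 ± 0.11; limma adjusted p = 0.00369).

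Energy metabolism genes encoded in the nucleus were lower. All 54 listed genes of oxidative phosphorylation were tested and 46 fell, with a median of -0.55 and 35 to 44 falls when any library was left out. Atp5b, the catalytic beta subunit of ATP synthase, was at 382, 378 and 350.3 FPKM in untreated and 209.7, 195 and 187 FPKM in gel libraries, -0.90 ± 0.08 (limma adjusted p = 0.000318). Uqcrfs1, the Rieske iron-sulphur subunit of complex III, fell from 175, 169 and 175 FPKM to 96.8, 95.3 and 87.6 FPKM, -0.88 ± 0.07 (limma adjusted p = 0.000224). Neither gene overlapped between the groups. Of the 13 tested mitochondrially encoded genes 2 fell, or 15.4%, beside 19.2% of all genes. The other 11 did not pass the test, and the list median was 0.06. Among them mt-Co1, a subunit of complex IV, overlapped at 7268 to 8665 and 7059 to 9458 FPKM (limma adjusted p = 0.605). The mitochondrial genes that fell were mt-Nd3 and mt-Atp8, which encode small subunits of complex I and of ATP synthase.

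Glycolysis and hypoxia-response genes gave 15 falls and 3 rises among 27, with a median of -0.59 and 12 to 17 falls when any library was left out. The 3 rises were less stable: 1 was left without untreated replicate 2, without untreated replicate 3 or without gel replicate 1, and 0 without gel replicate 3. Pfkm, the muscle phosphofructokinase, fell from 81.3, 87.7 and 73.4 FPKM to 27.3, 25.4 and 24.2 FPKM, -1.62 ± 0.09 (limma adjusted p = 2.98e-05). Aldoa, an aldolase abundant in muscle, fell by 1.29 on the log2 scale (SE 0.10; limma adjusted p = 0.000133). Ldha, the lactate dehydrogenase chain found in most tissues, fell less, from 305, 296 and 298 FPKM to 198, 199.7 and 198 FPKM (-0.59 ± 0.07; limma adjusted p = 0.000963). Muscle and rods are both rich in these enzymes, and the summed shares of muscle and rod genes fell in the same libraries. Their part in the metabolic changes was not tested.

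Genes that glucocorticoids induce were mostly lower. Of 26 tested 16 fell and 3 rose, with a median of -0.47, and 13 to 15 fell when any library was left out. The tested members include Zbtb16 and Pdk4, which passed only through the untreated libraries. Pdk4, which blocks pyruvate oxidation during fasting (chr6:5483351-5496309), selected by the filter, was at 13.1, 15.2 and 17.6 FPKM in untreated and 0.861, 0.631 and 0.989 FPKM in gel libraries, -3.15 ± 0.12 (limma adjusted p = 8.49e-06). Tsc22d3, the leucine zipper protein GILZ, fell from 71.0, 58.9 and 67.2 FPKM to 26.3, 36.5 and 30.4 FPKM, -1.06 ± 0.13 (limma adjusted p = 0.000991). Fkbp5, a cochaperone of the glucocorticoid receptor, fell from 15.8, 13.9 and 14.7 FPKM to 8.05, 9.13 and 4.92 FPKM, -0.95 ± 0.19 (limma adjusted p = 0.00901). All gel libraries lay under all untreated ones for Tsc22d3 and Fkbp5. Per1, a clock gene with glucocorticoid response elements, fell by 0.88 on the log2 scale (SE 0.10; limma adjusted p = 0.000963), and the transcription factor Klf9 fell by 0.77 (SE 0.08; limma adjusted p = 0.000507). Errfi1, an inhibitor of the EGF receptor, went up instead, from 24.5, 23.3 and 18.1 FPKM to 41.0, 42.3 and 44.3 FPKM (0.93 ± 0.11; limma adjusted p = 0.00111). Clock genes as a list had no common direction, with 5 rises and 7 falls among 22. These are 22.7% and 31.8%, beside 17.1% and 19.2% of all genes, and the labels give no time of day.

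Genes of cornea and ocular surface epithelium were evenly split, with 6 higher and 5 lower among 25 and a median of 0.00. These are 24% and 20%, beside 17.1% and 19.2% of all genes. The falls numbered 2 without untreated replicate 1, 2 without gel replicate 2 and 3 without gel replicate 3. Krt12, the corneal keratin, was at 5314, 4319 and 4399 FPKM in untreated and 3514, 3472 and 3561 FPKM in gel libraries, -0.41 ± 0.11 (limma adjusted p = 0.0226), and passed no longer without untreated replicate 1, gel replicate 2 or gel replicate 3 (limma adjusted p = 0.0802, 0.0595 and 0.0696). Muc1, a membrane mucin of ocular surface epithelia, rose from 16.2, 17.2 and 16.8 FPKM to 47.9, 43.2 and 46.6 FPKM, by 1.40 ± 0.07 (limma adjusted p = 2.37e-05). Among lens genes, Cryge and Crygf, gamma crystallins of fibre cells selected by the filter, were at 108, 244 and 1369 FPKM and at 68.2, 42.9 and 434 FPKM in untreated libraries. They were at 0, 0.153 and 0 FPKM and at 0.182, 0.530 and 0.657 FPKM in gel libraries. These falls passed limma on FPKM (adjusted p = 0.00453 and 0.00839) and without untreated replicate 3 (0.000442 and 0.000148), but not limma voom on the reads (adjusted p = 0.358 and 0.299). Cryaa, the alpha crystallin, overlapped at 34.2 to 1190.4 and 181 to 992 FPKM (limma adjusted p = 0.529). Of 8 tested gamma crystallins 3 fell, Cryga, Cryge and Crygf, which all passed only through the untreated libraries. The other 5 did not pass the test, and the gel libraries lay below the untreated ones for 5 of the 8. Crygb overlapped (limma adjusted p = 0.282), as did Crygs, named after its values were seen (0.944). The summed share of this list overlapped too, at 0.0596% to 1.04% of reads in untreated and 0.0367% to 0.131% in gel libraries. Gamma crystallin genes are near-identical to each other, and their counts are uncertain.

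**Figure D4:**
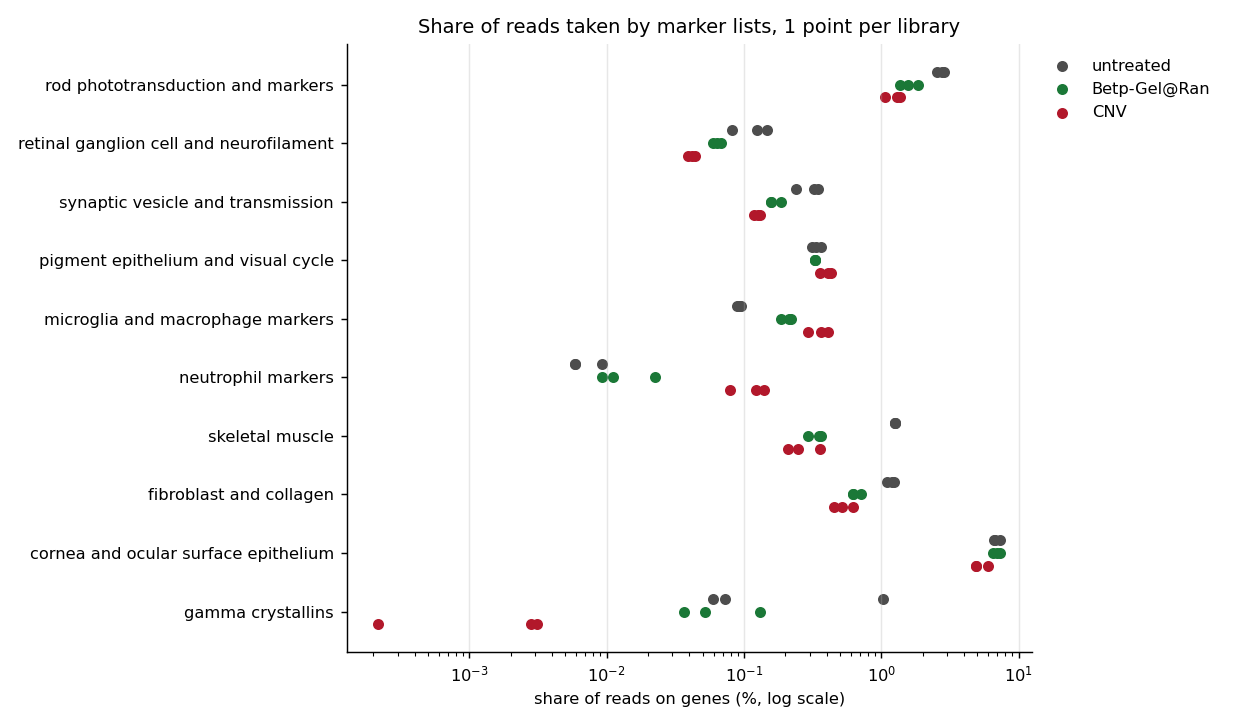
Share of reads on genes taken by 10 marker lists, in percent on a log axis, with 1 point for each library (untreated in grey, gel in green, CNV in red). Rod, ganglion cell, synaptic, skeletal muscle and fibroblast shares are lower in every gel library than in every untreated library, the macrophage share is higher, and those of pigment epithelium and cornea overlap.

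Further genes with large changes follow. Pglyrp4, a peptidoglycan recognition protein of epithelia (chr3:90726906-90741517), selected by the filter, was at 16.3, 14.6 and 14.5 FPKM in untreated and 0.627, 0.398 and 0.646 FPKM in gel libraries, -3.38 ± 0.09 (limma adjusted p = 3.07e-06). Lce3a, a late cornified envelope gene, fell from 83.5, 71.9 and 69.2 FPKM to 10.5, 10.2 and 15.8 FPKM, -2.55 ± 0.16 (limma adjusted p = 7.87e-05). Ifnl3, a type III interferon (chr7:28522836-28524322), selected by the filter, stood at 7.29, 4.16 and 4.26 FPKM and then at 0.0981, 0 and 0 FPKM, -2.56 ± 0.18 (limma adjusted p = 0.000113). Its neighbour Ifnl2 (chr7:28508836-28510455), named after its values were seen and also selected by the filter, held 5.62, 3.37 and 4.24 FPKM in untreated libraries and 0 in the gel libraries. That is at least 18.1-fold lower against a floor of 3 reads per library, and Ifnl2 was at 0 in the CNV libraries too. Ifnl2 and Ifnl3 are close copies, so reads may be split between them uncertainly. Cck, the neuropeptide cholecystokinin, fell from 14.5, 13.1 and 13.8 FPKM to 2.27, 2.42 and 2.48 FPKM, -2.12 ± 0.07 (limma adjusted p = 6.36e-06). Among the rises, Slc13a2, a dicarboxylate transporter, went from 2.64, 2.24 and 3.24 FPKM to 14.2, 14.5 and 16.4 FPKM, 2.12 ± 0.11 higher (limma adjusted p = 2.52e-05). Cerkl, a ceramide kinase-like gene linked to retinal dystrophy, rose by 1.86 ± 0.14 (limma adjusted p = 0.000117), from 0.842 to 1.01 FPKM to 4.67 to 7.26 FPKM. Among antioxidant genes, Gpx3, the secreted glutathione peroxidase, rose from 132, 121 and 113 FPKM to 337, 392 and 335 FPKM (1.53 ± 0.10; limma adjusted p = 5.91e-05), and Hmox1, the haem oxygenase, by 1.26 ± 0.19 (limma adjusted p = 0.0034).

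The largest rise of all among named genes was that of a pseudogene. Rps3a2, a processed copy of the ribosomal protein gene Rps3a1 (chr14:88123017-88123808), was at 10.3, 8.96 and 9.86 FPKM in untreated and 425, 454 and 429 FPKM in gel libraries, 5.35 ± 0.08 higher (limma adjusted p = 6.72e-08). Rps3a1, named after its values were seen, was at 1543, 1490.2 and 1702 FPKM and then 1304, 1252 and 1297 FPKM. Of the reads on Rps3a1, Rps3a2 and Rps3a3 together, Rps3a1 took 99.1% to 99.2% in untreated, 76.4% to 78.4% in gel and 76.0% to 77.2% in CNV libraries. The same pattern stood at Tpm3, a tropomyosin gene also named after its values were seen, and its copy Tpm3-rs7 (chr14:113314608-113316754). Tpm3-rs7 rose from 17.1, 15.6 and 15.9 FPKM to 105.1, 97.9 and 109 FPKM (2.61 ± 0.07; limma adjusted p = 3.07e-06). Of their joint reads Tpm3 took 91.2% to 92.0% in untreated, 32.5% to 38.9% in gel and 31.5% to 37.0% in CNV libraries. The split was nearly constant within each group and alike in the gel and CNV libraries. Reads of near-identical genes can be assigned to either copy, so these values are uncertain. The untreated libraries thus stood apart from both the gel and the CNV libraries in how such reads were split. The labels and notes do not say whether the reads of all groups were handled alike before counting. Its part in the other differences between gel and untreated libraries was not tested.

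**Figure D5:**
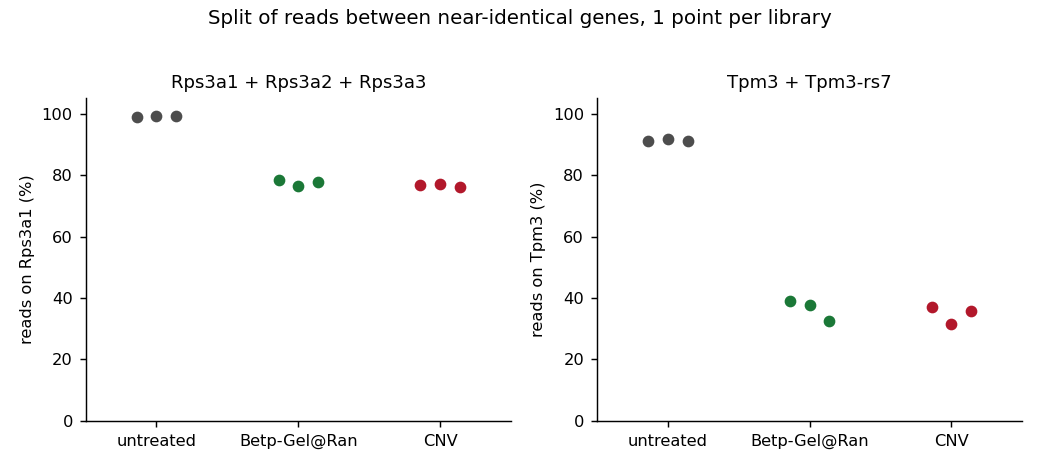
Share of reads on the first gene of a set of near-identical genes, in percent, with 1 point for each library of the untreated, gel and CNV groups. Rps3a1 takes 99.1% to 99.2% of its set in untreated libraries and 76.4% to 78.4% in gel libraries, and Tpm3 takes 91.2% to 92.0% and 32.5% to 38.9%.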

How the data were processed

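The deposited table holds FPKM per gene for 9 libraries of poly-A RNA, made by the authors with HTSeq 0.6.0 counts on mm10, per the submitters' processing notes, with an aligner not given in the sources used here. Strand-specific counting is not stated, so reads of overlapping antisense genes cannot be told apart. Multiplied by gene length, 100% of values were whole reads in units of a library's step (tolerance 0.05 reads), which gave reads per gene. Coordinates are those of the deposited table.

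Samples were grouped by their labels. Genes at 1 FPKM or more in at least 3 of the 6 libraries were kept, and log2(FPKM + 1) was fitted with limma 3.58.1 (trend and robust options, statmod 1.5.0, R 4.3.3) on the 6 libraries with no covariate. P-values were two-sided, adjusted by Benjamini-Hochberg over all 13541 genes, with a threshold of 0.05. SDs and SEs cover 3 libraries a group, and an exact permutation test of 3 against 3 cannot go below 0.10, so none was used. For a gene at 0 in a group, 3 reads per library served as the floor, which covers counting error only.

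The comparison and its 61 gene lists were chosen with earlier results of these data known. Named genes were the 20 largest rises and falls and the 5 smallest p in each direction, taken from called genes without overlap between groups (leaving out Gm and Rik symbols), up to 6 members with the smallest p and the first 3 of each list described, 16 chosen genes such as Vegfa, Kdr and Gfap, and the 10 most abundant genes. Some of these genes are not reported here. Motifs were searched in RefSeq promoters with Python 3.11.15, and figures drawn with matplotlib 3.10.9.

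Alternatives were no filter or one of 5 FPKM, a pseudocount of 0.1, all 9 libraries in the fit, quantile normalization, FPKM divided by its sum, no trend or robust options, array weights, a replicate block, lens lists as a covariate, limma voom on the recovered reads and each library left out. In simulated data of 13541 genes with independent noise, 100 genes were changed by 1 and 100 by 0.5 on the log2 scale. There limma recovered 85% of changes of 1 and 32% of changes of 0.5, with 6.4% of called genes unchanged. On simulated reads with 200 genes changed by 1 and the same assumed dispersion for every gene, limma voom recovered 90.5%, with 7.18% unchanged among the called. Far fewer genes were changed than the 36.3% called in the data, so these rates need not hold for this comparison.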

Additional observations from a re-analysis of the deposited data

How the results depend on the processing

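No named gene changed direction past the threshold: among the genes called by any alternative, 0 had the opposite sign to a call of the fit reported. Leaving out 1 library at a time gave 1469 to 2012 higher and 1682 to 2475 lower genes, and 133 to 170 and 293 to 371 at a size of 1 on the log2 scale. Counts moved by over 1.5 times in these cases: leaving out gel replicate 3 gave 1469 higher and 1682 lower genes, a pseudocount of 0.1 gave 317 higher and 494 lower genes of that size, a filter of 5 FPKM gave 1305 higher genes and 70 of that size, FPKM divided by its sum gave 1514 lower genes, limma voom on the reads gave 336 and 514 of that size, and voom with own totals gave 403 higher ones. limma voom called 5336 genes, of which 4721 were also called on FPKM. The list median of VEGF genes reversed to -0.318 under the filter of 5 FPKM, and that of alpha and beta crystallins, 0.42, to -0.164, -0.390 and -0.121 without untreated replicate 1, untreated replicate 2 and gel replicate 2, against 2.34 without untreated replicate 3. With the replicate number as a block, 2075 genes were higher and 2486 lower. Deviations of same-numbered libraries correlated at 0.0928, -0.0262 and -0.0479, and not every library correlated best with its own number. With 3 libraries a group this cannot decide whether the numbers pair the samples, and the labels do not say so. With the lens lists as a covariate 2302 genes were higher and 2696 lower. Depth was alike in the 6 libraries.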

Other observations

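Cell cycle genes were partly higher: of 29 tested 9 rose, with a median of 0.22, and 6 to 8 rose when any library was left out. That is 31%, beside 17.1% of all genes, and includes Mki67, which passed only through the gel libraries. Ccnd2, a D-type cyclin of the G1 phase, was at 6.79, 7.92 and 7.70 FPKM in untreated and 16.5, 16.7 and 15.7 FPKM in gel libraries, 1.03 ± 0.08 higher (limma adjusted p = 0.000125). Ccnd1, a further D-type cyclin, rose by 0.94 ± 0.09 (limma adjusted p = 0.000475), from 26.3, 25.1 and 25.7 FPKM to 49.8, 44.7 and 56.6 FPKM. Mki67, the proliferation antigen Ki-67, selected by the filter, went from 0.498, 0.638 and 0.517 FPKM to 1.88, 1.32 and 1.17 FPKM (0.65 ± 0.13; limma adjusted p = 0.00667). The gel libraries were above the untreated ones for both D-type cyclins.

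Antioxidant genes had no common direction, with 4 rises and 7 falls among 28, or 14.3% and 25%, beside 17.1% and 19.2% of all genes. Txnrd1, a thioredoxin reductase, rose from 12.3, 11.7 and 11.8 FPKM to 18.7, 19.0 and 19.4 FPKM (0.63 ± 0.06; limma adjusted p = 0.000473), and Cat, the catalase, fell from 27.6, 30.1 and 30.02 FPKM to 20.1, 18.4 and 19.7 FPKM (-0.57 ± 0.07; limma adjusted p = 0.00129).

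The mitochondrial glycine tRNA mt-Tg (MT:9391-9458), selected by the filter, was at 13.9, 13.2 and 21.9 FPKM in untreated libraries and at 0 in the gel libraries, at least 6.48-fold lower against a floor of 3 reads per library, and at 0 in the CNV libraries too. It ends directly before mt-Nd3 (MT:9459-9806), a subunit of complex I that fell from 69.1, 72.7 and 99.9 FPKM to 21.6, 28.3 and 38.2 FPKM (-1.44 ± 0.22; limma adjusted p = 0.00385). mt-Atp8, a short subunit of ATP synthase, fell from 8.66, 9.94 and 6.07 FPKM to 3.08, 2.17 and 3.46 FPKM (-1.23 ± 0.19; limma adjusted p = 0.00334, or 0.282 with all 9 libraries in the fit). The cause of these falls was not tested.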
